A study of Mus musculus with 6 samples.

Results

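The subject is a set of 10 transcription factor genes that mark and maintain endothelial cells: the SOXF genes Sox7, Sox17 and Sox18, the ETS genes Erg, Fli1 and Ets1, the Krüppel-like genes Klf2 and Klf4, the GATA gene Gata2 and the basic helix-loop-helix gene Tal1. They were chosen by name from a table of 29955 gene names, and all 10 were found in it. The cells were MS-1, an endothelial line from mouse pancreatic islets immortalised with the SV40 large T antigen. They carried 1 of 3 locked nucleic acid inhibitors, directed against miR-31 or miR-27 or serving as a negative control, and each was combined with 72 h of 1 ng/ml TGF-β2 or with no TGF-β2. That gave 6 libraries, 1 per condition, with no replicates, and nothing in the labels says whether the cultures were separate. The p-values therefore rest on no replicates. They set a change against the residual of an additive fit to the 6 libraries, moderated over all genes tested. Values are FPKM, which divide the fragments of a gene by its transcript length and by the size of the library.

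These factors bind one another's genes and the same enhancers, and together they hold the endothelial state. SOXF proteins act with ETS proteins in vessel formation and arterial fate, ERG and FLI1 keep up junction genes in resting endothelium, and KLF2 and KLF4 are induced by laminar flow and hold inflammation and clotting in check. GATA2 and TAL1 work in one complex with LMO2 in endothelial and blood precursors. TGF-β can push endothelial cells to take on mesenchymal traits, and the comparison asks which of these identity factors move with it and whether blocking miR-31 or miR-27 alters that.

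The microRNAs that the inhibitors target are shown here from RefSeq (GRCm38.p6), with the seed, bases 2 to 8, in capitals, because the seed gives the letters searched for in the factors' transcripts.
mmu-miR-31-5p: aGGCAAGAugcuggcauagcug
mmu-miR-27a-3p: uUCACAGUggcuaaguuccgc
mmu-miR-27b-3p: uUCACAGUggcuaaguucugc
miR-27a and miR-27b share their seed and differ at 1 of 21 bases. The labels name miR-27 without a letter.

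Of 15 endothelial markers, 13 had a mean of at least 1 FPKM, while Cldn5 and Mmrn2 stayed at or under 0.181 FPKM. Of the 13, Vwf reached that mean only through the libraries with TGF-β2, at 17.2 to 23.0 FPKM, against 0.372 to 0.426 FPKM without it. Blood cell markers matter here because several of these factors also act in blood. Of 13 found, 10 stayed at or under 0.578 FPKM, among them the leukocyte gene Ptprc and the erythroid gene Gata1, and Hbb-b1 was listed at 0 throughout. Cd68, Itgb2 and Itga2b passed the filter and fell with TGF-β2. The 13 summed to 112 to 142 FPKM with TGF-β2 and 185 to 227 FPKM without it, most of it Cd68. Of 12 pancreas and epithelial markers 11 stayed at or under 1.37 FPKM. The exception was the keratin gene Krt18, at 11.4 to 15.8 FPKM with TGF-β2 and 38.2 to 54.0 FPKM without it. The 12 summed to 12.9 to 16.6 FPKM with TGF-β2 and 38.8 to 54.5 FPKM without it, most of it Krt18. The part of either list in the results was not tested. Under TGF-β2 the miR-31 inhibitor lay 1 or more above the negative control, in log2(FPKM + 1), in 51 genes and as far below it in 30, against 13 and 10 genes for the miR-27 inhibitor. Results are therefore also given without the miR-31 inhibitor libraries where that moves them.

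Per unit of transcript length the factors spanned a wide range. With TGF-β2, Erg was highest at 94.6 to 102 FPKM over the 3 inhibitors, followed by Ets1 (65.6 to 71.9), Fli1 (35.6 to 41.7), Sox7 (29.0 to 31.6) and Tal1 (23.4 to 25.5), with no overlap between neighbours. Gata2 (9.60 to 10.8), Klf2 (7.71 to 11.1) and Sox18 (6.80 to 9.08) followed, each overlapping the next, and Klf4 (3.04 to 4.92) lay below them. Without TGF-β2, Erg (101 to 111) and Ets1 (47.9 to 49.5) again led, followed by Sox7 (42.8 to 47.1) and Fli1 (37.6 to 44.6), which overlapped. Tal1 (18.1 to 20.5), Klf2 (14.4 to 17.3), Gata2 (10.8 to 11.5), Klf4 (5.23 to 6.96) and Sox18 (1.26 to 1.83) followed with no overlap between neighbours. Sox17, which marks arterial endothelium (chromosome 1, 4481009 to 4486494, in mm9 as all gene positions here), was at 0.0124, 0 and 0.0239 FPKM with TGF-β2 and the miR-31, miR-27 and negative-control inhibitors, and at 0 in the 3 libraries without it. It was the 1 factor with a mean under 1 FPKM, the filter used, and was not tested. A value of 0 in the table need not show that a transcript is missing, because the translation factor gene Eef1a1, used by all cells, had 0 in every library.

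**Figure D1:**
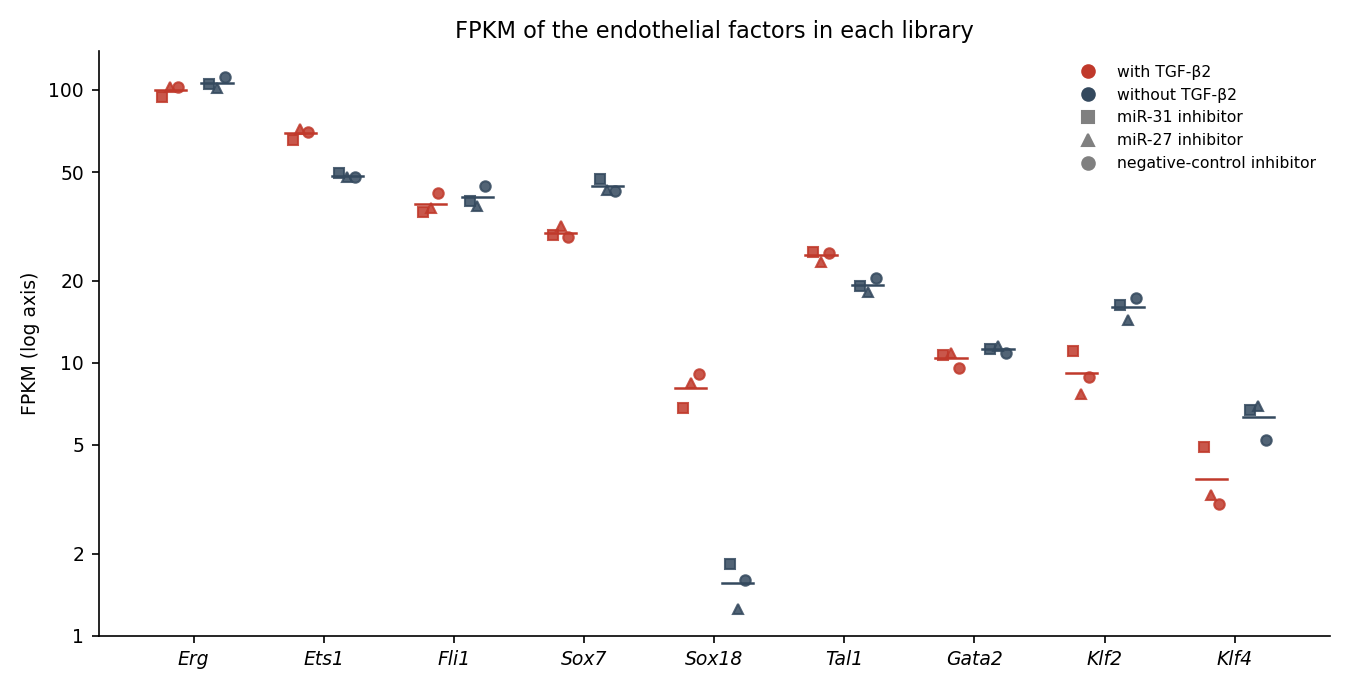
FPKM on a log axis for the 9 factors above 1 FPKM, with 1 point per library (red, with TGF-β2; dark, without; squares, miR-31 inhibitor; triangles, miR-27 inhibitor; circles, negative control) and a line at the mean of 3 libraries. Sox18 at 6.80 to 9.08 FPKM with TGF-β2 lies apart from 1.26 to 1.83 FPKM without it, while the points of Erg and Fli1 overlap; Sox17, at or near 0, is not drawn.

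With TGF-β2, Sox18, Ets1 and Tal1 rose, Sox7, Klf2 and Klf4 fell, and Erg, Fli1 and Gata2 did not pass the test. The test was limma on log2(FPKM + 1) with an additive term for the inhibitor, 2-sided, adjusted by Benjamini-Hochberg over the 11816 genes tested, at a threshold of 0.05. Of the 9 factors tested, 6 passed, 3 in each direction. Over all genes tested 50.2% passed, 22.7% higher and 27.5% lower, and the upper-quartile rescaling called 3988 genes higher and 2116 lower, against 2677 and 3249 on the deposited scale. The median change was -0.09 over the 9 factors and -0.02 over all genes tested. In 7 of the 9 the 3 libraries with TGF-β2 did not overlap the 3 without, beside 58.4% of all genes tested. In bulk RNA, fewer cells of a type and less RNA per cell cannot be told apart.

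Sox18, mutated in human and mouse disorders of lymphatic and blood vessels (chromosome 2, 181404542 to 181406345), changed most. It stood at 6.80, 8.46 and 9.08 FPKM with TGF-β2 and the miR-31, miR-27 and negative-control inhibitors, against 1.83, 1.26 and 1.60 FPKM without TGF-β2 in the same order. All 3 libraries with TGF-β2 were above all 3 without, at 3.72, 6.74 and 5.68 times their partners. The fit gave a rise of 1.83 ± 0.13 (SE, log2 of FPKM + 1; limma adjusted p = 5.06e-04). That scale understates the change of a gene this low, and with a pseudocount of 0.1 the rise was 2.31. On the log2(FPKM + 1) scale Sox18 was the 1 factor that differed by at least 1 in any transfection, and it did so in all 3, as did 1.95% of all genes tested upward. With the pseudocount of 0.1, Klf4 with the miR-27 inhibitor also passed that size, at -1.07. In single transfections 2.65%, 2.43% and 2.62% of all genes were at least 1 higher and 2.43%, 2.04% and 2.12% at least 1 lower, with the miR-31, miR-27 and negative-control inhibitors.

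Sox7, the SOXF gene that dominates in these cells (chromosome 14, 64562543 to 64569569), went the other way. It stood at 29.4, 31.6 and 29.0 FPKM with TGF-β2 and at 47.1, 43.1 and 42.8 FPKM without it, for the miR-31, miR-27 and negative-control inhibitors. Each library with TGF-β2 was below each without, at 0.624, 0.733 and 0.677 times its partner. The fall was -0.55 ± 0.06 (SE of the fit, limma adjusted p = 0.00173). The SOXF genes summed to 36.2, 40.1 and 38.1 FPKM with TGF-β2, against 48.9, 44.4 and 44.4 FPKM without it. Sox18 made up 18.8%, 21.1% and 23.8% of the sum with TGF-β2 and 3.74%, 2.83% and 3.60% without it. Sox7 remained the larger part in every library, at 4.32, 3.74 and 3.19 times Sox18 with TGF-β2 and 25.7, 34.4 and 26.8 times without it.

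Of the ETS factors, Ets1 rose while Erg and Fli1 did not pass. Ets1, an ETS factor of activated and sprouting endothelium (chromosome 9, 32443806 to 32565405), stood at 65.6, 71.9 and 70.4 FPKM with TGF-β2 and at 49.5, 47.9 and 48.0 FPKM without it, with no overlap. It rose by 0.51 ± 0.05 (SE of the fit, limma adjusted p = 0.00170). Fli1 lies near Ets1 on the same chromosome (32229793 to 32348953) and had 35.6, 37.0 and 41.7 FPKM with TGF-β2, against 39.2, 37.6 and 44.6 FPKM without it. The groups of Fli1 overlapped, and its change was -0.08 with a 95% interval from -0.20 to 0.03 (limma adjusted p = 0.171). Erg (chromosome 16, 95581811 to 95808200) had 94.6, 102 and 102 FPKM with TGF-β2, against 105, 101 and 111 FPKM without it. Its change was -0.09, with an interval from -0.21 to 0.04 (limma adjusted p = 0.205), and the upper-quartile rescaling turned the sign of both Erg and Fli1. Ets1 made up 33.5%, 34.0% and 32.8% of the summed FPKM of the ETS factors with TGF-β2 and 25.6%, 25.6% and 23.6% without it. The ratio of Erg to Fli1 lay between 2.45 and 2.76 in all 6 libraries.

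**Figure D2:**
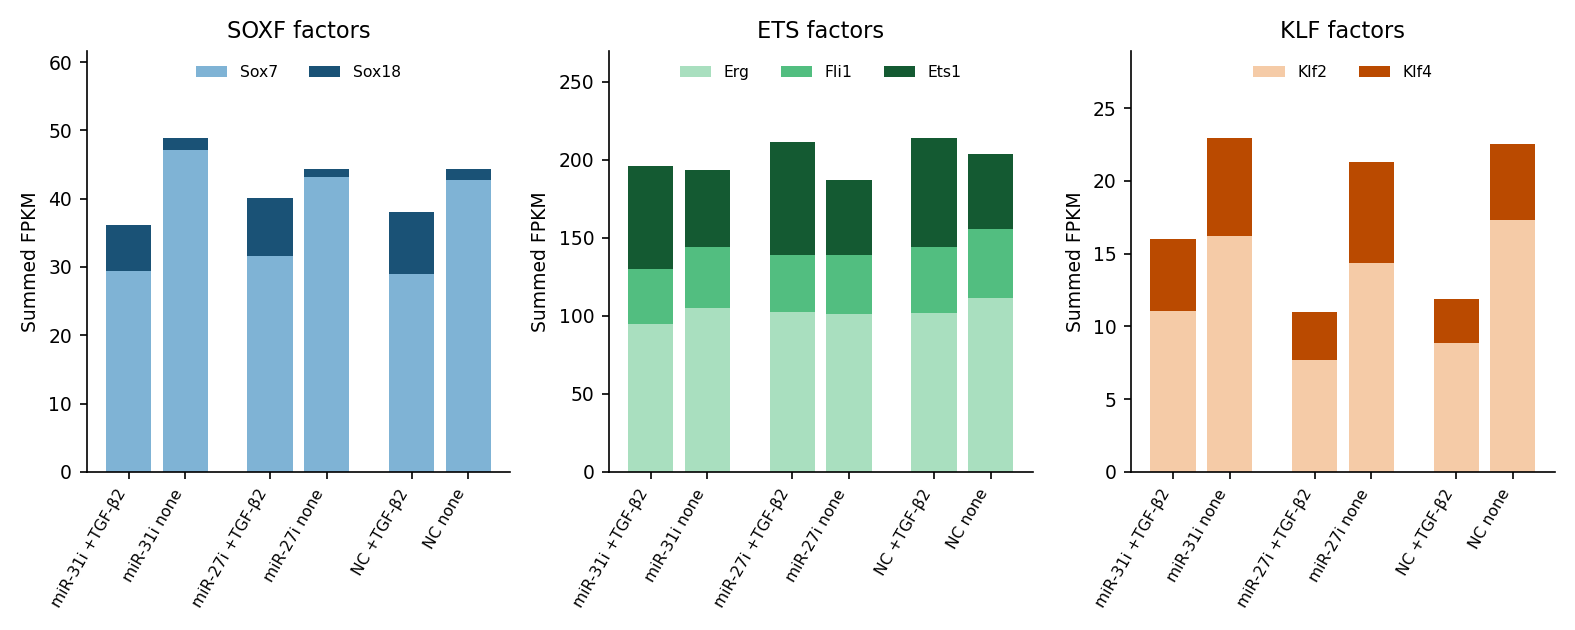
Stacked FPKM of the SOXF (Sox7, Sox18), ETS (Erg, Fli1, Ets1) and KLF (Klf2, Klf4) factors in each of the 6 libraries, where each bar is 1 library and so carries no error (miR-31i and miR-27i, inhibitors; NC, negative control). The Sox18 part is 18.8% to 23.8% of the SOXF sum with TGF-β2 and 2.83% to 3.74% without it, and the KLF sum is lower with TGF-β2 in every pair.

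Both flow-responsive Krüppel-like genes fell. Klf2 (chromosome 8, 74842961 to 74845553) had 11.1, 7.71 and 8.86 FPKM with TGF-β2 and the miR-31, miR-27 and negative-control inhibitors, against 16.2, 14.4 and 17.3 FPKM without it. Every library with TGF-β2 was below every library without, at 0.681, 0.536 and 0.511 times its partner. The fit gave -0.74 ± 0.08 (SE, limma adjusted p = 0.00228). Klf4, which shares many endothelial targets with Klf2 (chromosome 4, 55540009 to 55545347), had 4.92, 3.27 and 3.04 FPKM with TGF-β2, against 6.73, 6.96 and 5.23 FPKM without it. The groups lay close but did not overlap, the nearest values being the miR-31 inhibitor with TGF-β2 and the negative control without. Klf4 fell by 0.64 ± 0.10 (SE of the fit, limma adjusted p = 0.00690), a call that was lost when no filter on low values was used (adjusted p = 0.0512). The 2 genes together had 16.0, 11.0 and 11.9 FPKM with TGF-β2 and 23.0, 21.3 and 22.6 FPKM without it.

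Because Klf2 and Klf4 fell together, their promoter windows are shown, 250 bases before to 50 after the gene start (RefSeq, GRCm38.p6), with matches to the MEF2 motif and to the ETS core GGAA on either strand in capitals. MEF2 proteins are known to carry the flow signal of the kinase ERK5 to both genes.
Klf2, chr8:72318812-72319111, plus strand: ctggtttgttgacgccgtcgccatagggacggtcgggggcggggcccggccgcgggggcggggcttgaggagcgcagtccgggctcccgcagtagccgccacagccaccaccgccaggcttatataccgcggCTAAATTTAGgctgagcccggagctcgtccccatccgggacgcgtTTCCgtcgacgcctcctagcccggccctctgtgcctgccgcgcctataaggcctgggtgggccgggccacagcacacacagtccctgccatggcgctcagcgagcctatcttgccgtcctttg
Klf4, chr4:55532426-55532725, minus strand: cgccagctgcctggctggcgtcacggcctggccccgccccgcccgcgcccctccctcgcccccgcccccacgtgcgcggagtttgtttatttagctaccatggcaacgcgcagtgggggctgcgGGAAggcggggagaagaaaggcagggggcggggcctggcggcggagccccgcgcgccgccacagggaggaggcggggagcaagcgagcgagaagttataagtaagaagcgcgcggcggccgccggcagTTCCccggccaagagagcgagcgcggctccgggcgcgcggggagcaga
The Klf2 window holds 1 MEF2 match, which begins 118 bases before the gene start, and the Klf4 window holds none. Of 3 Erg windows, 1 also holds a MEF2 match, 16 bases before its start, and Erg did not pass with TGF-β2. Of all 32851 promoter windows of this length, 3.19% hold a MEF2 match. GGAA occurs in both, 1 time in Klf2 and 2 times in Klf4, as in 96.0% of all windows. These are matches of letters and say nothing of binding. Windows were matched for 5 of the 10 factors: Klf2, Klf4, Gata2, Tal1 and Erg.

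Of Gata2 and Tal1, partners in one complex, Tal1 rose and Gata2 did not pass, and the difference between them was not tested. Tal1 (chromosome 4, 114730416 to 114744360) had 25.5, 23.4 and 25.3 FPKM with TGF-β2, against 19.1, 18.1 and 20.5 FPKM without it, with no overlap. It rose by 0.35 ± 0.04 (SE of the fit, limma adjusted p = 0.00301), the smallest of the 6 changes that passed. Gata2 (chromosome 6, 88143885 to 88157026) had 10.7, 10.8 and 9.60 FPKM with TGF-β2, against 11.2, 11.5 and 10.8 FPKM without it. Its groups did not overlap either, but by a margin that vanishes at 3 digits, and it did not pass (-0.10, interval from -0.21 to 0.01, limma adjusted p = 0.0995). The ratio of Tal1 to Gata2 lay between 2.16 and 2.64 with TGF-β2 and between 1.57 and 1.90 without it.

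**Figure D3:**
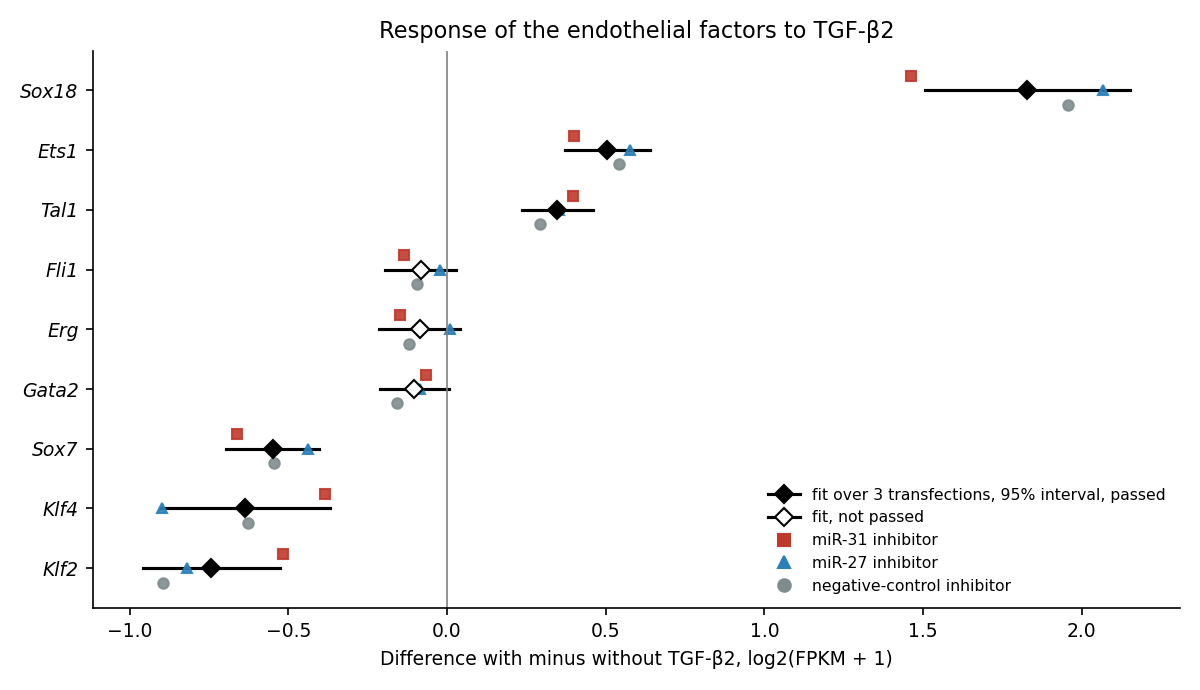
Difference with minus without TGF-β2 on the log2(FPKM + 1) scale for the 9 factors tested. Diamonds give the fit over 3 transfections with its 95% interval (filled, passed; open, not passed), and the coloured points give the difference of 2 libraries within each transfection. Sox18 stands at 1.83. The points of the miR-31 inhibitor lie nearest to 0 of the 3 for Sox18, Ets1, Klf2, Klf4 and Gata2. They lie farthest from 0 for Sox7, Tal1, Erg and Fli1.

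The size of the response varied between transfections for some factors. On the log2(FPKM + 1) scale Sox18 differed by 1.46 with the miR-31 inhibitor, beside 2.07 with the miR-27 inhibitor and 1.96 with the negative control. The differences of Klf2 were -0.52, -0.82 and -0.89 in that order, those of Klf4 -0.38, -0.90 and -0.63, and those of Ets1 0.40, 0.58 and 0.54. In these 4 the difference was nearest to 0 with the miR-31 inhibitor. Sox7 (-0.66, -0.44 and -0.55) and Tal1 (0.40, 0.35 and 0.29) were farthest from 0 with that inhibitor. Among the factors that did not pass, Gata2 (-0.07, -0.08 and -0.16) was nearest to 0 with it. Erg (-0.15, 0.01 and -0.12) and Fli1 (-0.13, -0.02 and -0.09) were farthest. Each response rests on 2 libraries, so whether they differ was not tested. Without the miR-31 inhibitor libraries all 6 factors still passed, with Sox18 at 2.01 (limma adjusted p = 4.54e-05), Klf2 at -0.86 and Klf4 at -0.76.

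With TGF-β2 held equal, 0 of the 9 factors tested passed for either inhibitor or between them. Over all genes tested 0.0339% passed for the miR-31 inhibitor, 0.00846% for the miR-27 inhibitor and 0.0169% between the inhibitors, so few genes of any kind passed. At an unadjusted p under 0.05 there were 2 factors for miR-31, 2 for miR-27 and 1 between them, beside 2135, 1470 and 403 genes of all tested. Klf4 was higher with the miR-31 inhibitor in both states, at 4.92 against 3.04 FPKM with TGF-β2 and at 6.73 against 5.23 FPKM without it. Its difference was 0.43 ± 0.13 (SE of the fit, limma adjusted p = 0.236), with a 95% interval from 0.11 to 0.76. For miR-27 the Klf4 values were 3.27 against 3.04 FPKM with TGF-β2 and 6.96 against 5.23 FPKM without it (0.22, limma adjusted p = 0.515).

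Fli1 was lower with both inhibitors than with the negative control, by -0.20 each (limma adjusted p = 0.230 for miR-31 and 0.316 for miR-27). Both comparisons use the same 2 negative-control libraries. Between the inhibitors Fli1 differed by 0.0025, with an interval from -0.14 to 0.14. Klf2 stood at 11.1 against 7.71 FPKM with TGF-β2 and at 16.2 against 14.4 FPKM without it, for the miR-31 against the miR-27 inhibitor (0.32 ± 0.10, limma adjusted p = 0.921). Sox18 was lower with the miR-31 inhibitor than with the negative control in the presence of TGF-β2 (6.80 against 9.08 FPKM) and higher in its absence (1.83 against 1.60 FPKM). Leaving out 1 miR-31 library leaves that inhibitor with a single library, which is assumed to vary like the other groups, and any interaction with TGF-β2 then falls into the difference. Without the miR-31 library that had no TGF-β2, the miR-31 difference was 0.62 for Klf4 (limma adjusted p = 0.0356) and -0.40 for Sox18 (adjusted p = 0.0378), and 702 genes were called higher and 435 lower. Without its partner, the one with TGF-β2, it was 0.24 for Klf4 (limma adjusted p = 0.386) and 0.15 for Sox18 (adjusted p = 0.404), so the sign of Sox18 turned. Between the inhibitors Klf2 differed by 0.49 (limma adjusted p = 0.0464) in the first of these fits and by 0.15 (adjusted p = 1.00) in the second.

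**Figure D4:**
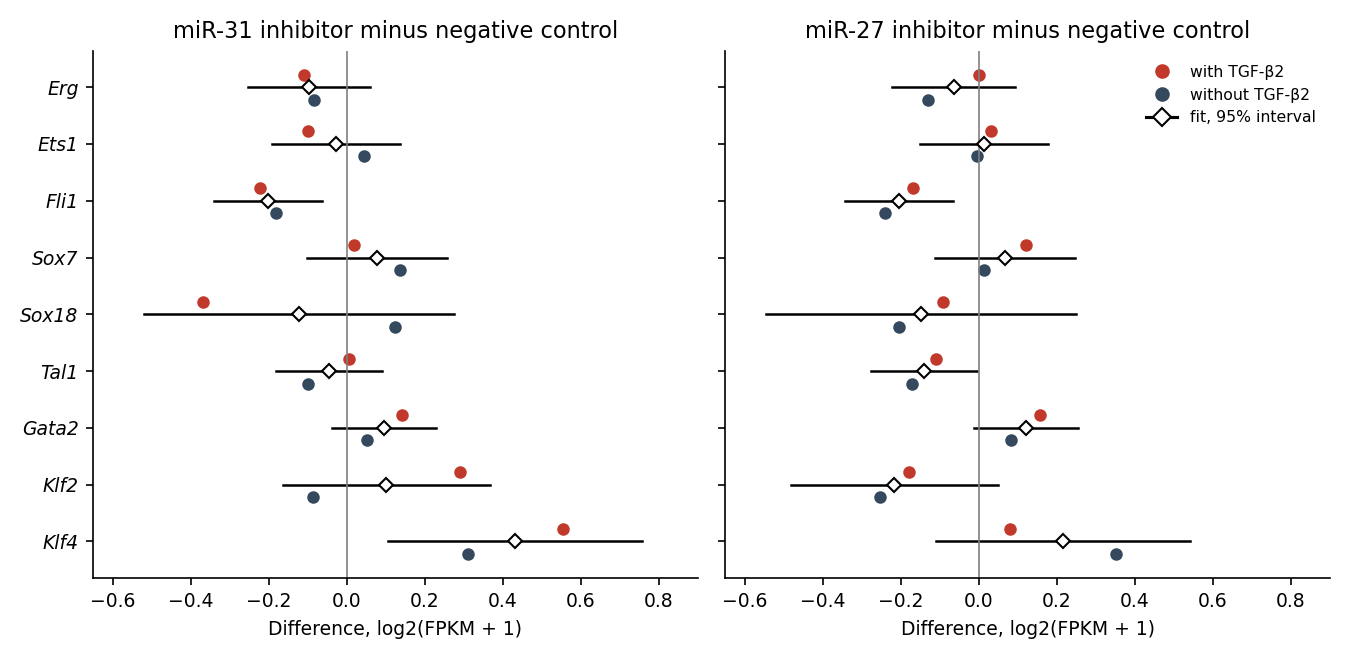
Difference of each inhibitor minus the negative control on the log2(FPKM + 1) scale, with TGF-β2 (red) and without (dark), 2 libraries a point, and the fit over both states with its 95% interval (open diamonds). Klf4 lies at 0.55 with TGF-β2 and 0.31 without it for miR-31, Fli1 lies below 0 in all 4 comparisons, and 0 of the 9 factors passed.

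Matches to the microRNA seeds were searched in the longest annotated 3′ UTR of each factor (GENCODE vM21), as 7-base complements of the seed. None of the 10 factors held the miR-31 match TCTTGCC, which 13.3% of 9550 tested genes with a 3′ UTR hold. The miR-27 match ACTGTGA was found 1 time each in 4 factors, Sox7, Erg, Gata2 and Tal1, and in 17.9% of those genes. The matches are shown in capitals with their flanks, to be read beside the effect of the miR-27 inhibitor.
Sox7: gattcttctcaACTGTGAcaatgtctcat
Erg: agctctgtcaaACTGTGAagatgacccag
Gata2: gtgccgccattACTGTGAatatttctaac
Tal1: gcggtggacggACTGTGAtcataacattg
They begin at base 1247 of 2073 in Sox7, 603 of 1637 in Erg, 191 of 1538 in Gata2 and 1978 of 3030 in Tal1. All 4 of these 3′ UTRs are longer than the median of 1204.5 bases over the 9550 genes, and the shares take no account of length. The differences with the miR-27 inhibitor were 0.07 for Sox7, -0.06 for Erg, 0.12 for Gata2 and -0.14 for Tal1, and so had no common sign. Their limma adjusted p-values were 0.698, 0.665, 0.427 and 0.393.

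The other members of the families moved in both directions with TGF-β2. Among 13 other ETS genes tested, 3 rose and 5 fell (61.5% passed, beside 50.2% of all genes tested). Their median was -0.07, beside -0.02 over all genes tested. Etv4 and Etv5, which respond to FGF signalling through ERK, fell by 2.42 and 1.84. Etv4 fell to 7.14, 6.64 and 5.58 FPKM with TGF-β2, against 40.8, 38.4 and 37.2 FPKM without it. Etv5 had 0.463 to 0.624 FPKM with TGF-β2 and 3.94 to 5.29 FPKM without it. It passed the filter only through the libraries without TGF-β2. The repressor genes Etv6 and Erf rose, Etv6 by 0.84 and Erf by 0.67. Of 9 other Krüppel-like genes tested, 2 rose and 5 fell (77.8%, beside the same 50.2%), with a median of -0.19. The 4 largest changes were falls: Klf6 by 0.64, Klf8 by 0.45, Klf16 by 0.42 and Klf7 by 0.35. Klf6 had 51.6, 39.7 and 35.8 FPKM with TGF-β2, against 68.9, 69.8 and 58.7 FPKM without it.

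Most other SOX and GATA genes were too low to test. Of 17 other SOX genes, 14 stayed under 1 FPKM and 3 were tested. Sox4, a SOXC gene linked to TGF-β in mesenchymal transition of epithelial cells, rose by 1.13 ± 0.07 (SE of the fit, limma adjusted p = 3.59e-04), while Sox12 (0.11) and Sox13 (-0.10) did not pass. Sox4 had 33.6 to 39.4 FPKM with TGF-β2, against 13.0 to 18.2 FPKM without it, and so lay above Sox7 with TGF-β2 and below it without. All 5 other GATA genes lay under 1 FPKM in every library, at most 0.852. Gata2 was therefore the 1 GATA gene at a level that could be tested.

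Of 10 partners of TAL1 and GATA2 tested, 3 rose and 2 fell. That is 50%, near the 50.2% of all genes tested that passed. The LIM-domain gene Lmo2, which bridges TAL1 and GATA proteins, fell by 0.66, to 6.24, 5.89 and 7.10 FPKM with TGF-β2, against 11.0, 9.01 and 12.2 FPKM without it. Lyl1, the closest relative of Tal1, rose by 0.61 and Ssbp3, which stabilises the LDB1 complex, by 1.19, while Zfpm2, a cofactor that binds GATA proteins, fell by 0.42. Of 16 genes upstream of the factors, 3 rose and 8 fell (68.8%), with a median of -0.16. Heg1, a receptor tied to the cerebral cavernous malformation proteins that restrain Klf2 and Klf4, rose by 1.40, Foxo1 rose by 0.53, and Ccm2 and the kinase gene Map3k3 fell by 0.53 and 0.48. The kinase gene Mapk7, which encodes ERK5, fell by 0.34, as did the MEF2 genes Mef2d by 0.35 and Mef2c by 0.32, while Mef2a rose by 0.28. Map2k5 (0.08), Map3k2 (0.09), Krit1 (-0.01), Pdcd10 (0.06) and Hdac7 (-0.16) of the same list did not pass. Whether any of these genes bears on Klf2 and Klf4 was not tested.

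Reported targets of KLF2 and KLF4 were counted in 2 lists. Of 13 tested genes reported to be raised by these factors, 9 fell and 1 rose with TGF-β2 (76.9%, beside 50.2% of all genes tested). Their median was -0.62, beside -0.02 over all genes tested. Thbd, which encodes the anticoagulant receptor thrombomodulin, changed by -2.82, to 19.0, 22.8 and 20.1 FPKM with TGF-β2, against 155, 165 and 137 FPKM without it. Ptgds, a prostaglandin synthase gene (-2.83), and the phosphatase gene Dusp5 (-2.24) fell as well, and Cyp1b1 rose by 1.87. Cyp1b1 had 3.45 to 4.21 FPKM with TGF-β2 and 0.221 to 0.328 FPKM without it. It therefore passed the filter only through the libraries with TGF-β2. Of 11 tested genes reported to be lowered by KLF2 or KLF4, 7 rose and 3 fell (90.9%), with a median of 0.17. The endothelin gene Edn1 (3.93) and Ctgf (3.77) rose and Angpt2 fell by 3.41. Several of the second list, Ctgf among them, are direct TGF-β targets by textbook knowledge, so its genes are not specific to KLF2 and KLF4. The first list is not specific either, as Thbd, Nos3 and Tek are also credited to ERG, FLI1 or ETS1. Of these, Nos3 fell by 1.23 and Tek did not pass. Whether the changes in either list follow those of Klf2 and Klf4 was not tested.

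Reported targets of the other factors moved both ways. Of 22 tested genes credited to ERG, FLI1 or ETS1, 4 rose and 12 fell, with a median of -0.36. That is 72.7%, beside 50.2% of all genes tested. Vwf rose by 3.93, from at most 0.426 FPKM without TGF-β2, whereas Angpt2 (-3.41), Thbd (-2.82) and the Notch ligand gene Dll4 (-1.81) fell. Dll4 had 0.621 to 0.815 FPKM with TGF-β2 and passed the filter only through the libraries without it. Of the 13 endothelial markers tested, which overlap this list, 4 rose and 6 fell (76.9%). Kdr stood at -0.80, Icam2 at -0.56 and Emcn at 0.79, while Pecam1 (0.05), Cdh5 (-0.13) and Tek (0.09) did not pass. Of 10 tested SOXF targets, 4 rose, with Nrp1 at 0.97, and 5 fell, with Kdr at -0.80 and Notch1 at -0.57 (90%, median -0.23). Of 19 genes credited to GATA2 or TAL1, 7 rose and 9 fell (84.2%, median -0.13). Edn1 and Vwf rose by 3.93 each, while Angpt2 fell by 3.41 and the receptor gene Kit by 1.06. Vwf had passed the filter only through the libraries with TGF-β2. The lists share genes, and both the genes and their signs come from general knowledge of other endothelial cells.

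**Figure D5:**
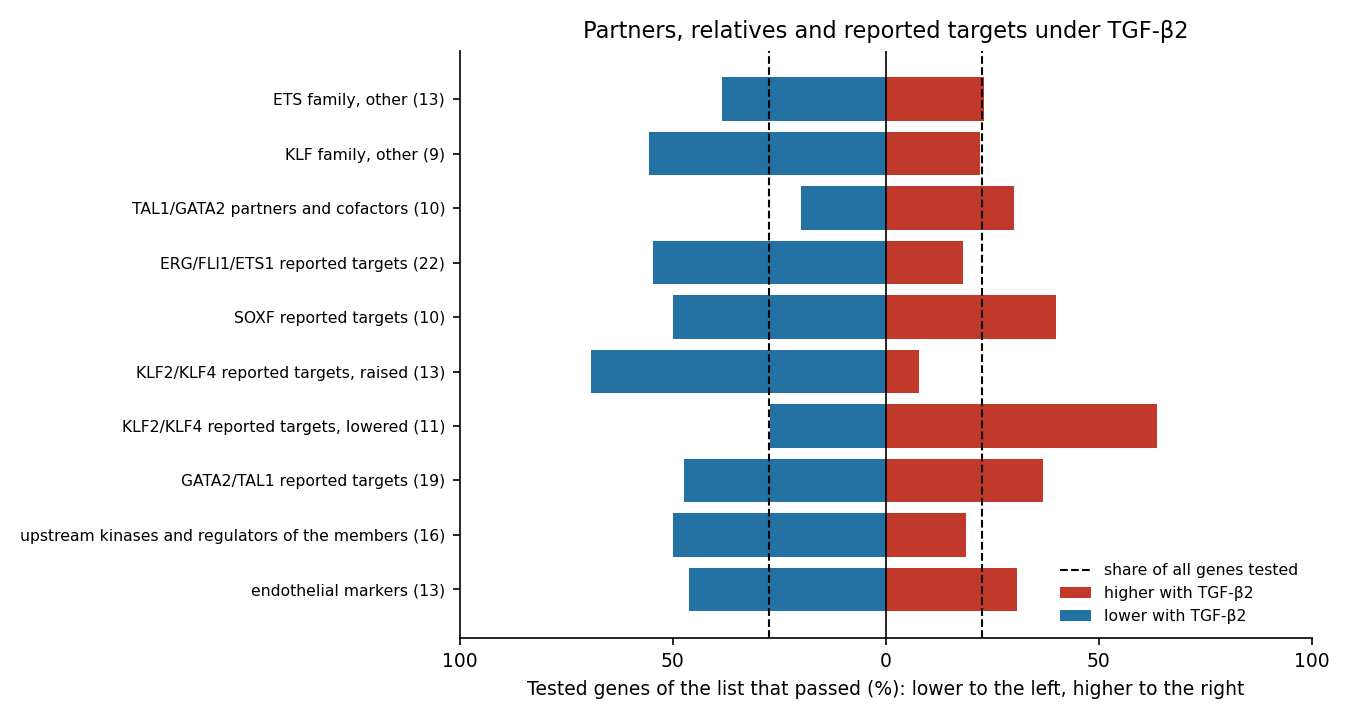
Share of the tested genes of each list that passed, higher (red, to the right) and lower (blue, to the left) with TGF-β2, with the number tested in brackets and dashed lines at the shares over all 11816 genes tested (22.7% higher and 27.5% lower). In the list of genes reported to be raised by KLF2 or KLF4, 9 of 13 lie on the lower side.

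Genes with the pattern nearest to that of a factor were looked up for the 2 factors whose range over the 6 libraries reached 1 on the log2(FPKM + 1) scale. Nearness was the distance between profiles centred on their own mean. For Sox18, with a range of 2.16, these were AK145301 (distance 0.21), the matrix gene Ccdc80 (0.22) and the tenascin C gene Tnc (0.27), with correlations of 0.998, 0.995 and 0.993 over 6 libraries. Tnc had 35.3, 39.2 and 38.6 FPKM with TGF-β2, against 10.3, 9.87 and 9.97 FPKM without it. For Klf2, with a range of 1.07, they were Prx (0.14), Mrvi1 (0.20) and N4bp3 (0.21), with correlations of 0.990, 0.981 and 0.980. N4bp3 had 50.0, 36.4 and 34.9 FPKM with TGF-β2, against 69.8, 65.2 and 71.7 FPKM without it. The genes named for both factors were picked as the nearest over the same 6 libraries, so their likeness and correlations follow from the choice. The points of such a correlation also share libraries and split mainly by TGF-β2.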

How the data were processed

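The authors deposited 1 table of FPKM with 6 columns, 1 per library. Per the submitters' processing notes, TopHat2 2.0.9, Cufflinks 2.1.1 and the build mm9 were used. Annotation, filters and strand settings are not given in the sources used here. The labels' protocols describe rRNA removal and a strand-preserving preparation. Listed starts count from 0, because end minus start equals the RefSeq gene length for 5685 of 19389 matched names and is 1 below it for 384, and 1 was added. No other name in the table overlaps a factor.

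The 11816 genes that averaged 1 FPKM or more were fitted with limma 3.58.1 (R 4.3.3) on log2(FPKM + 1) with inhibitor and TGF-β2 as additive terms, which leaves 2 residual degrees of freedom (prior 2.87). The residual holds noise and any interaction together. The fit was also run on simulated data with independent noise and TGF-β2 changes planted in a small share of genes. Those data held no inhibitor effect and no interaction, so the run says nothing of how the fit handles either. The steps of the lowest FPKM in genes with a single transcript of at least 3000 bases put the libraries at about 82.9 to 102 M fragments. Between 69.9% and 78.8% of such values lay within 0.15 of a whole fragment. The 9 factors then had about 179 fragments (Sox18, miR-27 inhibitor without TGF-β2) or more, a counting error of at most 7.48%. This estimate was added after seeing the data and covers counting error only.

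Factors and lists were chosen with earlier results of these data known. All factors were named, and in lists the 4 tested genes with the largest TGF-β2 change were examples. Mapk7, Mef2a, Mef2c, Mef2d, Map2k5, Map3k2, Krit1, Pdcd10, Hdac7, Nos3, Pecam1, Cdh5 and Tek were named after their values were seen. Alternatives were a pseudocount of 0.1, other filters, scalings and limma options, a fit with no inhibitor term, and left-out libraries. Spi1, Hba-a1, Tcfe2a and Piezo1 were not analysed here. Some genes of the lists are not reported here by name.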

Additional observations from a re-analysis of the deposited data

Results flagged for a closer look

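For some factors the difference between the same 2 conditions had opposite signs in different libraries, on the log2(FPKM + 1) scale. Each value rests on 2 libraries, and whether the differences differ was not tested. The TGF-β2 response of Erg was -0.15 with the miR-31 inhibitor, 0.011 with the miR-27 inhibitor and -0.12 with the negative control. The miR-31 inhibitor minus negative control difference was -0.37 with TGF-β2 and 0.12 without it for Sox18. For Klf2 it was 0.29 with and -0.087 without, for Ets1 -0.10 with and 0.043 without, and for Tal1 0.0074 with and -0.10 without. The same difference for the miR-27 inhibitor was 0.00099 with TGF-β2 and -0.13 without it for Erg, and 0.030 with and -0.0040 without for Ets1. The miR-31 library under TGF-β2 enters the Sox18 and Klf2 values, and it lay at least 1 from its negative control in 51 genes upward and 30 downward.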

How the results depend on the processing

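All 6 factors called under TGF-β2 kept their direction and their call under every alternative in which they were tested, except Klf4 without a filter. Sox18, with a mean under 5 FPKM, could not be tested with the higher filter. Over the alternatives the limma adjusted p went from 3.95e-05 to 0.0120 for Sox18, from 2.98e-04 to 0.0241 for Klf2 and from 0.00164 to 0.0512 for Klf4. The upper-quartile rescaling turned the uncalled TGF-β2 changes of Erg and Fli1 to 0.012 and 0.013 and the miR-27 difference of Ets1 to -0.039. It called 3988 genes higher and 2116 lower, against 2677 and 3249 on the deposited scale. The median-ratio rescaling turned Fli1 between the inhibitors to -0.0013. With either negative-control library left out, 1640 genes rose and 1926 fell, and with either miR-27 library left out 2090 fell. Leaving out 1 library also removes what its partner says of TGF-β2. When libraries were left out, 0 to 1 factors passed higher and 0 to 1 lower for miR-31, and 0 to 1 higher between the inhibitors, each time when the TGF-β2-free library of the miR-31 inhibitor was left out, a fit in which that inhibitor has 1 library and the other groups supply the spread. Uncalled differences that changed sign ranged as follows. For miR-31 they ran from -0.40 to 0.15 for Sox18, -0.069 to 0.27 for Klf2, -0.11 to 0.052 for Ets1 and -0.0071 to 0.16 for Sox7. For miR-27 they ran from -0.33 to 0.032 for Sox18, -0.14 to 0.0078 for Erg, -0.040 to 0.066 for Ets1 and -0.016 to 0.15 for Sox7. Between the inhibitors they ran from -0.25 to 0.30 for Sox18, -0.10 to 0.040 for Erg, -0.12 to 0.039 for Ets1, -0.044 to 0.049 for Fli1, -0.051 to 0.0033 for Gata2 and -0.074 to 0.096 for Sox7. The cause of these changes was not tested. The inhibitor term pairs the 2 libraries of a transfection, and without it the same number of factors passed with TGF-β2, 3 higher and 3 lower. The labels give no replicate numbers.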
